A study of Homo sapiens with 3 samples.

Results

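The genes described here code for the chains of 2 protein families, the integrins and the laminins, in a human melanoma line grown as a flat monolayer, as adherent 3D bodies, and as a monolayer again. They were chosen by name alone, from the probes on the array named for an integrin alpha or beta chain or for a laminin alpha, beta or gamma chain. The 37 genes reported, of the 30982 names on the array, are 18 integrin alpha chains, 8 integrin beta chains and 11 laminin chains. They were read by 59 of the 41000 probes.

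The line was 1205Lu, melanoma cells recovered from a lung metastasis of a WM793 xenograft in a mouse, so that all populations come from a single line. The original monolayer (OM) grew for 14 days in RPMI-1640 with 10% fetal calf serum (FCS), and the melanoma bodies (MB) for 14 days in human embryonic stem cell (hESC) medium, DMEM F-12 with 20% Knock Out serum replacement. The new monolayer (NM) came from bodies kept in hESC medium for 14 days, followed by 10 days in the serum medium, with bodies that persisted taken away before RNA was prepared. Total RNA of each population was labelled with Cy3 and hybridised to 1 array, all on 1 slide, so there were no replicate cultures and differences are given without a test or a p-value. Growth as bodies and the hESC medium cannot be told apart, since both changed together.

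An integrin is a pair of membrane proteins, 1 alpha chain and 1 beta chain, that grips the matrix outside the cell and links it to actin or keratin filaments inside. The pairing sets the ligand: chains such as ITGA3, ITGA6 and ITGA7 make laminin receptors, ITGA1, ITGA2, ITGA10 and ITGA11 collagen receptors, and ITGA5 and ITGAV receptors for ligands with an RGD motif. Laminins are cross-shaped trimers of 1 alpha, 1 beta and 1 gamma chain that form the sheet of the basement membrane, and each trimer is named by its chain numbers. In melanoma, integrins of the ITGAV and ITGB3 chains are known for their link to growth into the dermis.

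Probes of 60 bases read these genes, and 7 are shown, chosen after values were seen. Positions follow the hg17 build that the scanner files use. The ITGA10 probe (chr1:143031257-143031316, plus strand) and the brighter ITGA2B probe (chr17:39805268-39807257, minus strand, a span longer than the probe, so its bases come from more than 1 exon) both lie in the coding sequence where the chain enters the cytoplasm. The capitals mark a match to the letters GGNTTNTTN, the codons of the Gly-Phe-Phe stretch that alpha chain tails share.
ITGA10: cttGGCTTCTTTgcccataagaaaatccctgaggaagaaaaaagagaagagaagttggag
ITGA2B: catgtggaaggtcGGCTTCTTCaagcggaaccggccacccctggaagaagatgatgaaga
These letters also stand in the ITGA8 probe, and in 1.89% of all 41000 probes on the sense strand (3.77% on either strand), so the match is only a description. The ITGB5 probe (chr3:125965181-125965240, minus strand) lies in the coding sequence of the cytoplasmic tail of that chain.
ITGB5: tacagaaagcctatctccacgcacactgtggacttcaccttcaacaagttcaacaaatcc
The first 30 bases of the 3 ITGB3 probes are shown because the probes differed in MB. Probes 1 (chr17:42743726-42743785) and 3 (chr17:42744026-42744085, the brightest) lie close together, and probe 2 (chr17:42723653-42723712), described on the array as a partial, alternatively spliced sequence, lies upstream of both. All 3 are on the plus strand, and these sequences have no capitals.
ITGB3 probe 1: tggcctgttcttctatgggttggacaacct
ITGB3 probe 2: cgatttctgttacgtgaacttcactctcag
ITGB3 probe 3: atgtgtggacacattggacctttcctgagg
The first 30 bases of the LAMB3 probe (chr1:206176673-206176732, minus strand) are given because LAMB3 was the laminin chain with the largest fold of NM over OM.
LAMB3: gcctttagttctccactggggaggaatcct

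Signals are in arbitrary units (a.u.) scaled on the average of 3 housekeeping genes, GAPDH, ACTB and HSP90AA1, relative to OM (factors of 1.02 for MB and 1.14 for NM). A gene with several probes is represented by its brightest, and a level on 1 probe says nothing about the level on another. Of the 26 integrin genes, 20 were well above background on all 3 arrays, 23 on at least 1, and ITGA8, ITGAD and ITGB6 on none. Of the 11 laminin genes, 8 were well above background on all 3 arrays, and LAMA2, LAMA3 and LAMB4 on 1 array each. No integrin or laminin spot was saturated. Folds of genes at background on 1 of the arrays are bounds ("at least"), taken from whichever is higher, that probe's signal or the detection floor of the array (scaled, 20.9 a.u. for OM, 19.8 for MB and 33.2 for NM), which is the faintest signal called well above background. Replicate spots of probes above 100 a.u. gave the log2 ratio MB/OM an SD of 0.06 (210 probes), a 1.04-fold difference, which is technical and covers no variation between cultures. For probes of 20 to 100 a.u. the SD was 0.43, a 1.35-fold difference.

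**Figure D1:**
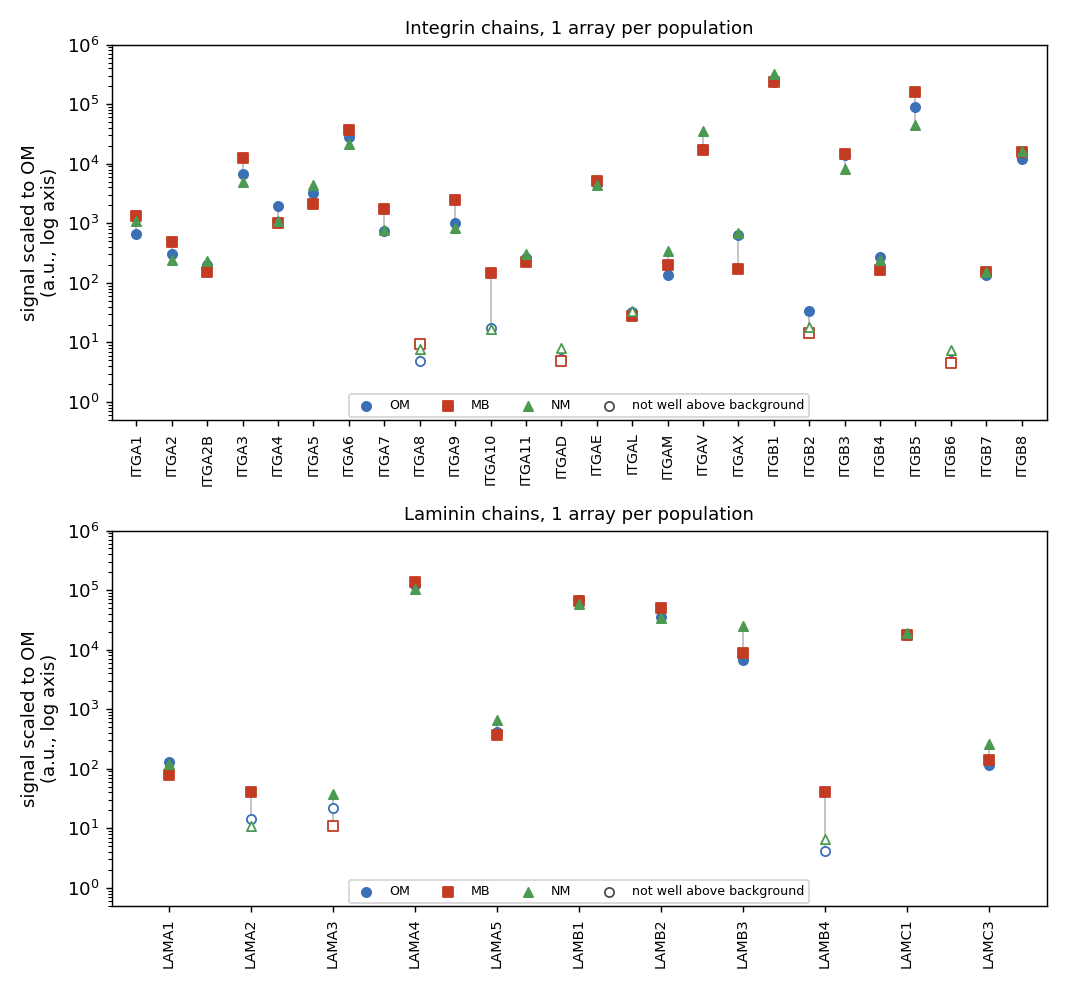
Signal scaled to OM, in arbitrary units on a log axis, for each integrin chain (top) and laminin chain (bottom), with 1 point for each of the OM, MB and NM arrays and open points where the probe was not well above background. ITGA10 stands clear of background on MB alone, and ITGAX is the integrin chain that lies farthest below its OM and NM levels on MB.

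Melanoma cells are the cells the label names, and of 14 markers of melanoma cells 12 were detected well above background in OM, 12 in MB and 11 in NM, with TYR and TYRP1, enzymes of pigment synthesis, at background on all 3. Of 8 leukocyte markers, 4 to 5 were well above background, with PTPRC, LYZ and HBB at background on every array. Their summed signal was 4955 a.u. in OM, 2028 in MB and 5903 in NM, most of it from CD68 (4716, 1766 and 5637 a.u.). Endothelial markers summed to 247, 517 and 387 a.u. on OM, MB and NM, with CDH5 at background throughout and VWF at 185, 399 and 109 a.u. PECAM1 was well above background on MB alone (89.7 a.u., at least 4.29-fold above OM), and TEK on NM alone (231 a.u., at least 11.1-fold above OM). Fibroblast and muscle markers summed to 1275, 2418 and 3171 a.u., nearly all from PDGFRB (1246, 2375 and 3120 a.u.), with LUM, DES and MYH11 at background throughout. Platelet markers summed to 3509, 3348 and 5571 a.u., nearly all from GP9 (3420, 3294 and 5470 a.u.), with PPBP at background. Keratinocyte markers summed to 39342, 40684 and 37376 a.u., most of it KRT10, with KRT5 and KRT1 at background and KRT14 2.85-fold lower in NM than MB. The part of such cells in the integrin and laminin signals was not tested. In RNA from a whole population, fewer cells expressing a gene and less RNA per cell cannot be told apart.

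The first comparison asked which chains differ between the bodies and the monolayer they came from. In MB, 3 alpha chains were 2-fold or more above OM with the brighter array above 100 a.u.: ITGA10, ITGA7 and ITGA9. On the same rule, ITGAX was 2-fold or more lower. The 3 higher genes are 8.11% of the 37, beside 3.89% of all 30968 genes with a value on both arrays, and the 1 lower gene is 2.70%, beside 2.43%. Of the 30968 genes, 8570 were well above background on no array and could not be called, against 3 of the 37. Shares of all genes therefore run low beside those of the members, here and below. At 5-fold, the threshold of the study, ITGA10 alone passed (2.70% of the 37, beside 0.988% of all genes), and its call was lost with other background corrections, where its fold was 2.48 and 2.87. With the arrays scaled on spike-in probes instead, ITGA7 (1.89-fold) and ITGA9 (1.95-fold) missed 2-fold, which left 1 gene higher and 3 lower.

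The second comparison asked which chains differ once the bodies seed a new monolayer. In NM, 4 genes were 2-fold or more above MB, namely ITGA5, ITGAV, ITGAX and LAMB3 (10.8% of the 37, beside 5.94% of all genes). Another 5 were 2-fold or more lower, namely ITGA10, ITGA3, ITGA7, ITGA9 and ITGB5 (13.5%, beside 7.85%). No integrin or laminin gene passed 5-fold, beside 2.26% of all genes. This comparison shares the MB array with the first, so a gene that reads high or low on MB alone moves opposite ways in both.

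The third comparison set the new monolayer against the original. ITGAM, ITGAV, LAMB3 and LAMC3 were 2-fold or more higher in NM than OM (10.8% of the 37, beside 2.47% of all genes), and ITGB5 was 2-fold or more lower (2.70%, beside 3.39%). None passed 5-fold, beside 0.746% of all genes. ITGA7 and ITGAX, which differed 2-fold or more between MB and either monolayer, were within 1.07-fold of each other in the 2 monolayers, and ITGA9 was within 1.20-fold.

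**Figure D2:**
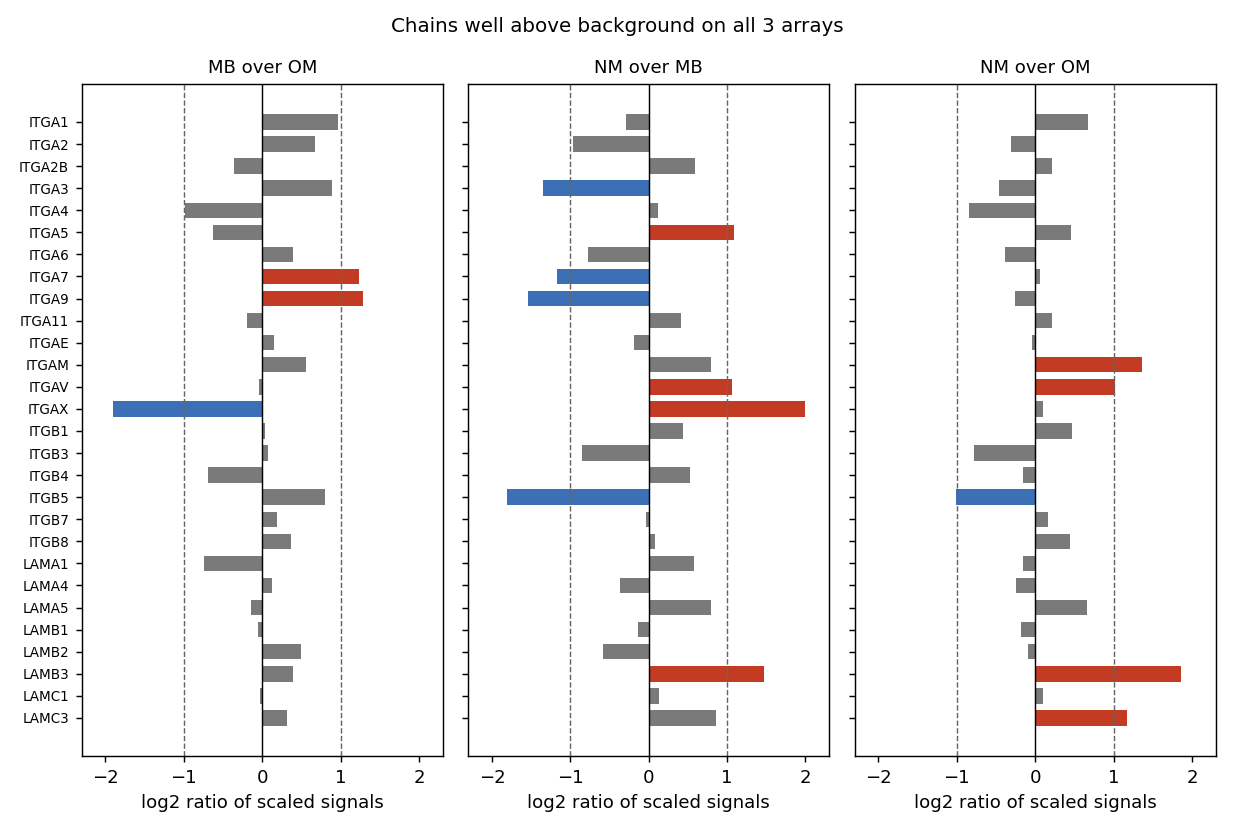
Log2 ratio of scaled signals for the chains well above background on all 3 arrays, for MB over OM, NM over MB and NM over OM, with 1 bar per gene from 1 array per population, so no error bars, and dashed lines at 2-fold. Red bars are 2-fold or more higher and blue bars 2-fold or more lower, and ITGAX is blue in the first panel and red in the second.

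Among the laminin-binding integrins, the alpha chains read higher in MB than in either monolayer, while the beta chains did not move with them. ITGA7, best known as the laminin receptor of muscle, had 750 a.u. in OM, 1761 in MB and 781 in NM, so MB was 2.35-fold above OM and NM 2.25-fold below MB. ITGA3, the chain that binds laminin-332 and laminin-511, gave 6781, 12571 and 4938 a.u. on OM, MB and NM. Its MB signal was 1.85-fold above OM, short of 2-fold, and its NM signal 2.55-fold below MB. ITGA6, which pairs with ITGB1 or with ITGB4, ran the same way with smaller folds, at 28119, 36735 and 21517 a.u., 1.31-fold above OM in MB and 1.71-fold lower in NM than MB. ITGA2, a receptor for collagen and laminin, gave 304, 482 and 246 a.u. on its brighter probe, with NM 1.96-fold below MB. Its dimmer probe gave 113, 189 and 171 a.u., a difference of only 1.11-fold between MB and NM, so the probes disagreed on the size of that step.

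Of the beta chains of these receptors, ITGB1 differed little and ITGB4 ran opposite to ITGA6. ITGB1, the shared partner of most matrix-binding alpha chains, read 234007 a.u. in OM, 239255 in MB and 324213 in NM, differences of 1.02-fold in MB and 1.39-fold in NM against OM. Its 4 probes lay between 0.03 and 0.27 in log2 MB/OM, and 1 of them is placed by the files on chromosome 8, away from the others on chromosome 10. ITGB4, the beta chain of hemidesmosomes, which anchor epithelial cells to laminin, gave 267, 166 and 240 a.u., with MB 1.61-fold below OM.

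Among the collagen receptors, ITGA10 was measured on MB alone. Its signal was 144 a.u. on MB, and on OM (17.4) and NM (16.7) it was not well above background, so MB was at least 6.89-fold above OM and NM at least 4.33-fold below MB. It rests on 1 spot of 1 probe (62 pixels, mean 214 and median 216 a.u. before background was subtracted, pixel SD 35.4). Of the 24 spots within 2 rows and columns, 0 were bright on MB alone, a check chosen after the signal was seen. ITGA1, named here because it came close to 2-fold, gave 671, 1311 and 1075 a.u., with MB 1.95-fold above OM and NM 1.22-fold below MB. ITGA11 differed by at most 1.33-fold in any comparison, at 227 to 302 a.u.

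The chains that bind fibronectin and tenascin did not move as a block. ITGA9, a receptor for tenascin-C and osteopontin, had signals of 1016 (OM), 2468 (MB) and 847 a.u. (NM). MB stood 2.43-fold above OM and NM 2.91-fold below MB, and its second probe (95.2, 252 and 62.9 a.u.) gave 2.65-fold and 4.01-fold in the same directions. ITGA5, the main fibronectin receptor chain, ran the other way, at 3263, 2109 and 4483 a.u., with MB 1.55-fold below OM and NM 2.13-fold above MB. ITGA4, which binds fibronectin and VCAM1 and is named because it came close to 2-fold, gave 1970, 1001 and 1090 a.u., with MB 1.97-fold and NM 1.81-fold below OM.

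In the ITGAV family of RGD receptors, the alpha chain was higher in NM while ITGB3 and ITGB5, 2 of its partners, were lower. ITGAV read 17519 ± 598 a.u. in OM, 17014 ± 605 in MB and 35560 ± 1375 in NM (SD over the 10 spots of its probe, a technical spread). MB and OM differed by less than that spread, and NM was 2.03-fold above OM and 2.09-fold above MB, far beyond it. Its second probe (245, 222 and 406 a.u.) gave 1.66-fold and 1.83-fold, under the threshold. The ITGAV call is near the limit, since the fold of NM over OM was under 2 in 5 of the alternatives, at 1.78 at the lowest, and that of NM over MB in 3.

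ITGB5, a vitronectin receptor chain, read 91015 a.u. in OM, 158655 in MB and 45193 in NM. NM was 3.51-fold below MB and 2.01-fold below OM, and MB was 1.74-fold above OM. The difference from OM fell to 1.92-fold when the housekeeping genes were averaged geometrically. ITGB8, a chain that activates latent TGF-beta, gave 12154, 15663 and 16566 a.u., with at most 1.36-fold between arrays on its brightest probe, while its other 3 probes read lower in NM than MB by 1.47-fold to 1.58-fold.

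ITGB3 was the chain whose probes disagreed most on MB over OM. The brightest (probe 3 above) gave 14020, 14749 and 8180 a.u. on OM, MB and NM, and probe 1 gave 4288 ± 126, 4080 ± 98.6 and 2157 ± 67.4 a.u. (SD over 10 spots). Both were near level between OM and MB (1.05-fold either way) and lower in NM than OM, by 1.71-fold and 1.99-fold. Probe 2, from the alternatively spliced sequence, gave 1081, 2019 and 1067 a.u., with MB 1.87-fold above OM and NM 1.01-fold below it. All 3 probes read lower in NM than MB, by 1.80-fold to 1.89-fold, short of 2-fold.

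**Figure D3:**
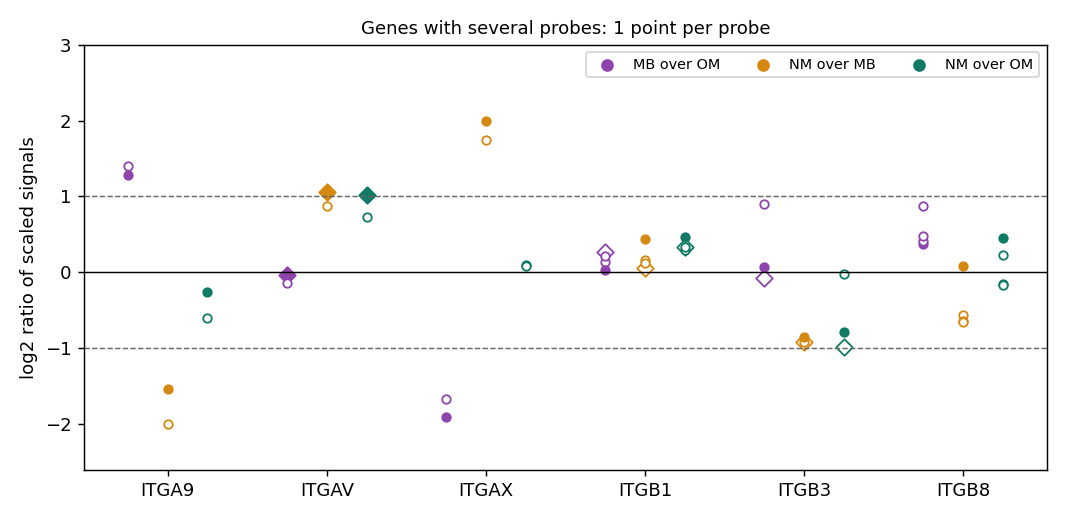
Log2 ratio of scaled signals for each probe of 6 genes that have several probes, with filled points for the probe that represents the gene, open points for its other probes and diamonds for probes printed in 10 spots. Both ITGAX probes lie below -1 for MB over OM and above 1 for NM over MB, while 1 ITGB3 probe stands 0.90 above zero for MB over OM apart from the other two.

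Of the leukocyte integrin chains, ITGAX differed most. ITGAX, the alpha chain of a complement receptor of myeloid cells, had 649 a.u. in OM, 174 in MB and 694 in NM, so that MB was 3.73-fold below OM and NM 3.99-fold above MB. Its second probe gave 72.1, 22.6 and 76.1 a.u., with folds of 3.19 and 3.37 in the same directions. The monolayers differed by 1.07-fold on the first probe. CD68, a myeloid marker, was also lower in MB (2.67-fold below OM, with NM 3.19-fold above MB), while PTPRC, which leukocytes carry, was at background on all arrays, and the part of other cells in the ITGAX signal was not tested.

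ITGAM, the alpha chain of another complement receptor, had 135 a.u. in OM, 199 in MB and 346 in NM, with NM 2.57-fold above OM and 1.74-fold above MB. ITGB2, the beta chain that ITGAX, ITGAM, ITGAL and ITGAD need to reach the cell surface, gave 33.7 ± 5.47 a.u. on OM (SD over 10 spots), and 14.5 on MB and 18.0 on NM, both not well above background. ITGAL gave 31.9 a.u. on OM and 28.3 on MB and was not well above background on NM. ITGAE and ITGB7, which together bind E-cadherin, differed by at most 1.14-fold. ITGA2B, the fibrinogen receptor chain of platelets, gave 199, 155 and 233 a.u., and was called in no comparison.

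Among the laminin alpha chains, LAMA4, the alpha chain of vessel basement membranes, read 123273 a.u. in OM, 134468 in MB and 104265 in NM, differences of at most 1.29-fold. LAMA5, the widespread alpha chain of adult basement membranes, gave 409, 371 and 647 a.u., with NM 1.74-fold above MB. LAMA1, an alpha chain of early embryos, gave 132, 79.3 and 118 a.u. with MB 1.66-fold below OM. LAMA2, the muscle and nerve chain, gave 40.0 a.u. on MB, at least 1.91-fold above OM, and was at background on both monolayers. LAMA3, the alpha chain of laminin-332 in skin, gave 38.1 a.u. on NM, at least 1.92-fold above MB, and was at background on OM and MB. Neither passed the rule, since both bounds were under 2-fold and the brighter signal was under 100 a.u.

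The beta chains parted. LAMB1 and LAMB2 differed little: LAMB1 gave 66987, 64600 and 59207 a.u., at most 1.13-fold apart, and LAMB2 gave 35790, 50425 and 33698 a.u., with MB 1.41-fold above OM. LAMB3, which occurs in laminin-332, had 6780 a.u. in OM, 8884 in MB and 24675 in NM. NM was 3.64-fold above OM and 2.78-fold above MB, and under every alternative run LAMB3 stayed between 3.19-fold and 3.81-fold above OM. LAMB4 read 40.9 a.u. on MB on 1 of 2 probes, with both probes at background on OM and NM.

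Of the gamma chains, LAMC1, the usual partner in most trimers, was level at 17648, 17292 and 18957 a.u. LAMC3 gave 116, 143 and 260 a.u., with NM 2.25-fold above OM, a fold that was under 2 in 3 alternatives.

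Over the 8 laminin genes measured on all arrays, the median log2 ratio of NM over MB was 0.36, beside -0.00 over the 19245 genes of the array measured likewise, and 5 of the 8 lay above that median. For MB over OM the laminin median was 0.05 beside 0.08, a difference of -0.03 that turned to 0.18 with quantile normalization, and for NM over OM 0.01 beside 0.09. Over the 20 integrin genes the medians were 0.17, 0.02 and 0.08 for MB over OM, NM over MB and NM over OM, each within 0.10 of all genes, and for NM over MB the sign of that difference turned with quantile normalization. The integrins were spread more than shifted: for NM over MB their quartiles were -0.88 and 0.55, beside -0.51 and 0.46 for all genes.

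Of 24 known integrin pairs, 17 had both chains measured on all arrays. In NM over MB, the chains of 9 pairs differed from each other by 2-fold or more. The count was 5 in MB over OM and 5 in NM over OM. All genes of the array were also spread more widely in NM over MB, with quartiles of -0.51 and 0.46. Their quartiles were -0.25 and 0.42 for MB over OM and -0.23 and 0.38 for NM over OM. No share over other gene pairs was computed, so the counts are only a description. The widest gap was in ITGAV with ITGB5, 2.87 on the log2 scale for NM over MB, since the first chain was higher and the second lower. ITGAV with ITGB3 was 1.91 apart in the same comparison and ITGAV with ITGB8 0.98. The gap with ITGB8 rests on its brightest probe (log2 NM/MB 0.08). The other ITGB8 probes (-0.56 to -0.66) widen it past 2-fold. Among laminin receptors the gap in NM over MB was -1.79 for ITGA3 with ITGB1, -1.61 for ITGA7 with ITGB1, -1.21 for ITGA6 with ITGB1 and -1.30 for ITGA6 with ITGB4, with the alpha chain lower each time. The 4 ITGB1 probes ranged from 0.06 to 0.44 in log2 NM/MB, and the brightest, used for these gaps, gave the highest value. On the other ITGB1 probes the gaps of ITGA3, ITGA7 and ITGA6 with ITGB1 are narrower, and that of ITGA6 is under 2-fold. The gaps of ITGA5 and ITGAV with ITGB1 are wider there, since these alpha chains were higher in NM. The count of 9 thus depends on the probe, and can lose or gain pairs. Most pairs share the ITGB1 probe, so these gaps are not independent, and transcript ratios do not give the amount of a pair at the cell surface.

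**Figure D4:**
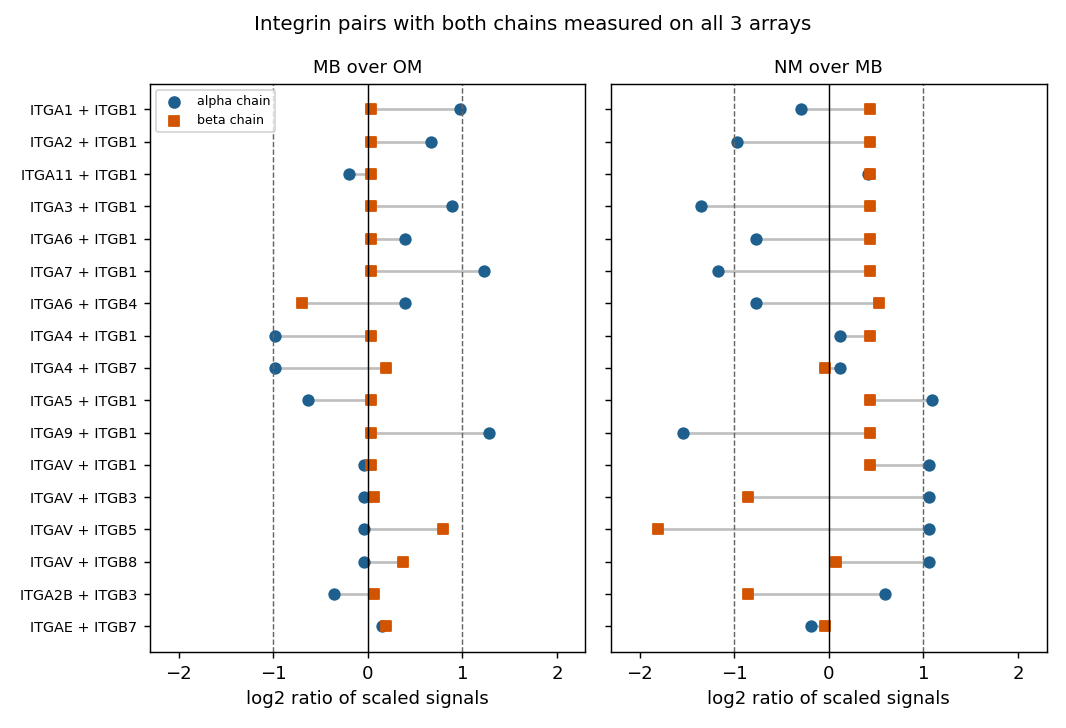
Log2 ratio of scaled signals for the alpha chain (circle) and beta chain (square) of the 17 integrin pairs with both chains measured on all arrays, for MB over OM and NM over MB, 1 array per population, with dashed lines at 2-fold. In NM over MB the squares of ITGB3 and ITGB5 lie left of zero while the circle of ITGAV lies at 1.06.

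Set against their ligands, the laminin trimers divided by chain. Of 8 trimers examined, 6 had all chains measured on all arrays: laminin-111, 121, 411, 421, 511 and 521. In laminin-411 and laminin-421, bound by ITGA6, every chain stayed within a log2 ratio of 0.58 in either direction in every comparison. In laminin-511 and laminin-521, bound by ITGA3 and ITGA6, LAMA5 had a log2 ratio of 0.80 for NM over MB, against -1.35 for ITGA3 and -0.77 for ITGA6. For laminin-332, bound by the same chains, LAMB3 had 1.47 for NM over MB, and LAMA3 was measured on NM alone. ITGA3 and ITGA6 thus read lower in NM than MB, and LAMA5 and LAMB3 higher, with LAMA5 and ITGA6 short of 2-fold. The other chains of the 6 trimers went both ways for NM over MB. LAMA1 had 0.58 and LAMC1 0.13, while LAMB1 had -0.13, LAMA4 -0.37 and LAMB2 -0.58, so the laminins did not run opposite to these integrins as a set.

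Other genes of the pathway were taken from lists set by function. Of 16 basement membrane partners of laminin, NID2 (nidogen 2, 2.48-fold) and COL7A1 (collagen VII of anchoring fibrils, 3.03-fold) were higher in MB than OM, and NTN4, a netrin that binds the laminin gamma chain, was 4.57-fold lower at 3112 a.u. on OM and 680 on MB. In NM, NTN4 returned to 3134 a.u., 4.61-fold above MB, and COL7A1 was 3.30-fold below MB, while FBLN1 (fibulin 1) was 2.01-fold above OM. For MB over OM these calls are 12.5% of the 16 higher and 6.25% lower, beside 3.89% and 2.43% of all genes. For NM over MB they are 6.25% higher and 6.25% lower, beside 5.94% and 7.85%, and for NM over OM 6.25% higher, beside 2.47%. Of the 8 other laminin receptors on the array, CD44 stood 2.04-fold below OM in MB, and in NM it was 2-fold or more above MB (209431 against 67601 a.u.), as were the syndecans SDC4 (2.12-fold) and SDC2 (2.05-fold). DAG1, the dystroglycan that carries the other main laminin receptor, gave 13663, 18572 and 10694 a.u. with no call in any comparison. Of the 8 receptors, 12.5% were thus lower in MB than OM, beside 2.43% of all genes. In NM, 37.5% were higher than in MB, beside 5.94%.

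Of 21 other integrin ligands, ICAM1, the ligand of ITGB2 integrins, read 48207 a.u. in OM, 12851 in MB and 104715 in NM, so MB was 3.75-fold below OM and NM 8.15-fold above MB. MFGE8, an RGD ligand of ITGAV pairs, gave 900, 4404 and 1981 a.u., with MB 4.89-fold above OM and NM 2.22-fold below MB. VWF was 2.15-fold above OM in MB and 3.66-fold below MB in NM, and THBS1 was 2.17-fold lower in NM than OM, where MFGE8 (2.20-fold) and ICAM1 (2.17-fold) were higher. Fibronectin (FN1) gave 46849, 69763 and 53054 a.u. and tenascin-C (TNC) 39840, 55919 and 64487 a.u., neither called. For MB over OM the calls are 9.52% of the 21 higher and 4.76% lower, beside 3.89% and 2.43% of all genes. For NM over MB they are 4.76% higher and 9.52% lower, near the 5.94% and 7.85% of all genes. For NM over OM they are 9.52% higher and 4.76% lower, beside 2.47% and 3.39%.

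Inside the cell, of 34 adaptors and kinases on the array, 1 was lower in MB than OM, the kindlin FERMT1 (578 and 228 a.u., 2.53-fold). That is 2.94% of the 34, near the 2.43% of all genes. Of the 34, 33 were well above background on at least 1 array, against 22398 of all 30968 genes, so these shares are of unlike sets. In NM, 7 were 2-fold or more below MB (20.6% of the 34, beside 7.85% of all genes). The 5 with the largest folds were PLEC, the plectin that ties ITGB4 to keratin (2.97-fold), TNS3, a tensin (2.47-fold), DST, which holds the hemidesmosome plaque protein (2.42-fold), the kinase SRC (2.39-fold) and PXN, paxillin (2.28-fold). ITGB3BP, also known as a centromere protein, was the 1 gene higher (2.08-fold, 2.94% of the 34, beside 5.94% of all genes). It is named after its value was seen. Against OM, DST alone was lower in NM (2.19-fold, 2.94% of the 34, beside 3.39% of all genes). The median log2 ratio of the 33 measured adaptors and kinases was -0.15 for NM over MB, beside -0.00 for all genes. It was -0.2 for NM over OM, beside 0.09, and 0.08 for MB over OM, beside 0.08. The talins TLN1 and TLN2, the kinases ILK and PTK2 and vinculin (VCL) were not called in any comparison.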

How the data were processed

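Spot by spot intensity values from Agilent Feature Extraction (version 9.5.3.1), in arbitrary units, were deposited by the authors for every array. Tested on the files, the background taken from each spot was the fitted spatial surface, and low values had been replaced by a surrogate. The deposited series table held the same intensity values (130128 of 130128 within 0.1%). Control spots and outlier spots (77, 79 and 81) were left out, spots of a probe averaged, and arrays scaled on GAPDH, ACTB and HSP90AA1 (arithmetic mean of their probes printed in 10 spots). The study's text names HSP90 without the gene. Well above background were 28746 (OM), 29125 (MB) and 26516 (NM) probes. The number of arrays limits the precision.

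A gene was called at 2-fold (or 5-fold, the study's threshold) with the brighter array well above background and above 100 a.u. unscaled. Values are given for called members, chains of laminin receptors and laminin trimers, ITGA5, ITGAV and ITGB3, and at most 5 called genes of each other list. The members and lists were chosen with earlier results of these data known, and the probe sequences after values were seen. A gene that the naming rule also matches is not reported here, and no count or median of the members holds it. Gene names are those on the array. Of the 59 probes, 55 matched RefSeq gene names (GRCh38.p14, no coordinates taken) by accession and 4 by symbol. Exon annotation of hg17 was not used here, and ITGB4BP and RPSA were not matched on the array. On simulated arrays of MB against OM, 100 of 100 genes changed 4-fold were called, 0 of 100 changed 1.5-fold and 0 of 30782 unchanged. These arrays copied the OM signals and detection, with only spot error (SD 0.06 in log2) added, and the changed genes were bright. With so small an error the outcome at 2-fold was set in advance. It checks the code, and gives no rate of false calls between cultures or for dim genes.

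The 12 alternatives were other scalings (75th percentile, quantile, none, 7 spike-in probes, geometric mean), normexp background correction (limma 3.58.1, R 4.3.3, offset 50), no background subtraction, the mean of all probes of a gene, no minimum signal or 200 a.u., outlier spots kept and the series table. Python 3.11.15, numpy 2.4.6, pandas 2.3.3, scipy 1.17.1 and matplotlib 3.10.9 were used.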

Additional observations from a re-analysis of the deposited data

How the results depend on the processing

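With 1 array per population no replicate could be left out, and the slide is shared by all arrays. No paired analysis was possible because each population has 1 array. Of 108 counts of called genes under the 12 alternatives, 95 stayed within 1.5 times. Between MB and OM, spike-in scaling left 1 gene higher in place of 3 and gave 3 lower in place of 1, the 75th percentile, quantile normalization, no scaling and the geometric mean each gave 2 lower, and the 1 gene past 5-fold (ITGA10) became 0 with normexp, without background subtraction and with a minimum of 200 a.u. Without scaling, the genes higher in NM went from 4 to 2 against MB and from 4 to 2 against OM, and those lower in NM than OM from 1 to 2, while the geometric mean left 0. The median of integrins minus that of all genes for MB over OM moved from 0.10 to 0.16 (quantile) and 0.17 (all probes), and for NM over MB from 0.02 to -0.13 and -0.09. The same difference for laminins moved from -0.03 to 0.18 (quantile) for MB over OM, and from 0.36 to 0.26 (normexp) and 0.27 (no background subtraction) for NM over MB. The cause was not tested. Spike-in scaling moved the median of all genes from 0.08 to -0.24 for MB over OM. No fold of a called integrin or laminin gene reversed, and 16 of 180 fell under 2-fold, in ITGA5, ITGA7, ITGA9, ITGAV, ITGB5 and LAMC3. Signals near background carry the largest error.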
